A study of Arabidopsis thaliana with 10 samples.

Results

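The genes described here are the 10 RPD3-type histone deacetylase genes *HDA19* (AT4G38130), *HDA6* (AT5G63110), *HDA7* (AT5G35600), *HDA9* (AT3G44680), *HDA2* (AT5G26040), *HDA5* (AT5G61060), *HDA8* (AT1G08460), *HDA14* (AT4G33470), *HDA15* (AT3G18520) and *HDA18* (AT5G61070), of 27444 protein-coding genes on the 5 nuclear chromosomes. A peak was counted for a gene when its summit lay in the gene or in the 1 kb upstream of the gene start, taken here as the transcription start site (TSS). By this rule 30 of the 38540 peaks in the 4 lists fell on these genes, with 9, 6, 8 and 7 peaks in stage order from S0 to S8. The mark was acetylation of histone H3 at lysine 27 (H3K27ac), mapped by ChIP-seq in inflorescences of pAP1::AP1-GRap1cal plants of the Ler background. All stages share this line, in which the *ap1 cal* mutant makes inflorescence meristems in place of flowers until a fusion of AP1 with the glucocorticoid receptor, driven by the *AP1* promoter, is activated with dexamethasone. S0 is the inflorescence meristem collected before induction, and S2, S4 and S8 are tissue collected 2, 4 and 8 days after the first of the daily inductions, which the labels place at flower stages 2, 4-5 and 7-8. Each stage has 2 ChIP libraries, and 2 input libraries served as the control.

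Histone deacetylases of the RPD3 type are zinc-dependent enzymes that take acetyl groups off lysines, among them those of histone H3 that acetyltransferases modify. They mostly act inside co-repressor complexes with SIN3-like scaffolds, WD40 proteins of the MSI family and co-repressors such as TOPLESS. In flowers such complexes help to repress genes outside their proper stage or whorl. Class I comprises *HDA19*, *HDA6*, *HDA9* and *HDA7*. *HDA5*, *HDA8*, *HDA14*, *HDA15* and *HDA18* are placed in class II, and *HDA2* stands apart as the member most like HDAC11 of animals. The question addressed here is whether the genes of these deacetylases themselves carried the mark, where on the gene, and at which stages.

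The stretches in which the summits fell are shown first. A summit is the point of highest signal in a peak and need not be its midpoint. Each line runs from the first to the last summit of the gene's strongest peak over the stages with a peak, on the transcribed strand in TAIR10 coordinates, with coding bases in capitals and intron bases in lower case. For *HDA19* the stretch covers the S0 and S4 summits, and for the others the summits of all 4 stages. The weaker second peaks of *HDA8* at S0 and S4 lie outside its stretch.
*HDA19* (chr4:17898968-17899014, minus strand): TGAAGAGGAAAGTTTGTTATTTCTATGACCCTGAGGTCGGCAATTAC
*HDA6* (chr5:25317953-25318050, minus strand): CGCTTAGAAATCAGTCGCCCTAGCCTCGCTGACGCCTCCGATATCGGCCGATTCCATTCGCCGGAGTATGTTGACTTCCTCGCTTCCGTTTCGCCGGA
*HDA9* (chr3:16229627-16229744, minus strand): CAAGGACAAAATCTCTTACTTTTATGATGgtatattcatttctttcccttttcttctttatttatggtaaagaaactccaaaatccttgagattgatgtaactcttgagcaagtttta
*HDA2* (chr5:9101310-9101424, minus strand): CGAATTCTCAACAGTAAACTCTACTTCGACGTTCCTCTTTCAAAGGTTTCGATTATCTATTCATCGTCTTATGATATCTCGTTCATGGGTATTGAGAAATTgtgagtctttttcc
*HDA5* (chr5:24570639-24570809, minus strand): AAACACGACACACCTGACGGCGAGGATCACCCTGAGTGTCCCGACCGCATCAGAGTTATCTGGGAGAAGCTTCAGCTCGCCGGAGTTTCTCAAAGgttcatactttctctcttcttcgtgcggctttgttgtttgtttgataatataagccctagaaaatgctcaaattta
*HDA8* (chr1:2672647-2672729, plus strand): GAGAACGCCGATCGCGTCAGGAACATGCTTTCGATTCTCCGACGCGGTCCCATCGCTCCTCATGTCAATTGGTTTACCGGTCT
The *HDA6* and *HDA8* stretches of 98 and 83 bases were coding throughout, with GC contents of 58.2% and 55.4%. The *HDA9* stretch of 118 bases had 29 coding and 89 intron bases and a GC content of 29.7%. In *HDA5* and *HDA2* the stretch ran from the first coding exon into intron 1, with 95 coding bases of 171 and 101 of 115. The *HDA14* and *HDA15* stretches reach into the 5′ UTR and are not shown.

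The 4 lists are the authors' peak calls on the pooled replicates of each stage, and in stage order they hold 11583, 8608, 9114 and 9235 peaks. They carry no value per replicate, so no test between stages was possible and no error between replicates can be given. The lists give no read numbers, so depth is unknown. Each peak has a fold enrichment over input at its summit, and this was turned into a percentile, the share of peaks in the same list with a fold enrichment at or below it. The weakest peaks of each list have a −log10 q near 10, so a gene without a peak may carry the mark below that limit. Tissue was whole inflorescence, and fewer cells with the mark cannot be told apart from less mark per cell. Of 8 floral regulators used to check the stage labels, *SOC1*, *AGL24* and *SVP* had a peak at S0, none of these had one at S8, and *AP3* and *SEP3* had a peak at S8 alone. At S2 *SVP* had a peak, while *SOC1* and *AGL24* had none. *AP1*, whose promoter drives the transgene, had a peak at every stage, at the 0.276, 0.453, 27.6 and 57.8 percentiles in stage order. By −log10 p these were 22.9, 35.9, 73.0 and 90.5, and by fold enrichment times width 22.4, 86.2, 81.7 and 96.8. *PI* and *AG*, which specify petals, stamens and carpels, had none at any stage.

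Of the 10 deacetylase genes, 8 had a peak at S0, against 43.8% of all protein-coding genes. At S2 the count was 6, against 34.5% of all genes. S4 and S8 had 7 genes each, against 36.4% and 36.6%. A peak at all 4 stages was found on 5 genes, *HDA6*, *HDA9*, *HDA2*, *HDA5* and *HDA8*, against 26.7% of all genes. A peak at any stage was found on 8 of the 10 genes, against 48.4% of all protein-coding genes. All 8 had one at S0, as did 90.7% of all genes with a peak at any stage. Of all genes with a peak at S0, 73.8% kept one at S2, and S4 and S8 had 77.3% and 77.3% of them. Among the 8 deacetylase genes with a peak at S0, 6, 7 and 7 had one at S2, S4 and S8. S0 is also the longest list. *HDA19* was without a peak at S2 and S8, *HDA15* at S2 and *HDA14* at S4, and *HDA7* and *HDA18* at all 4 stages. No test of these shares was made.

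**Figure D1:**
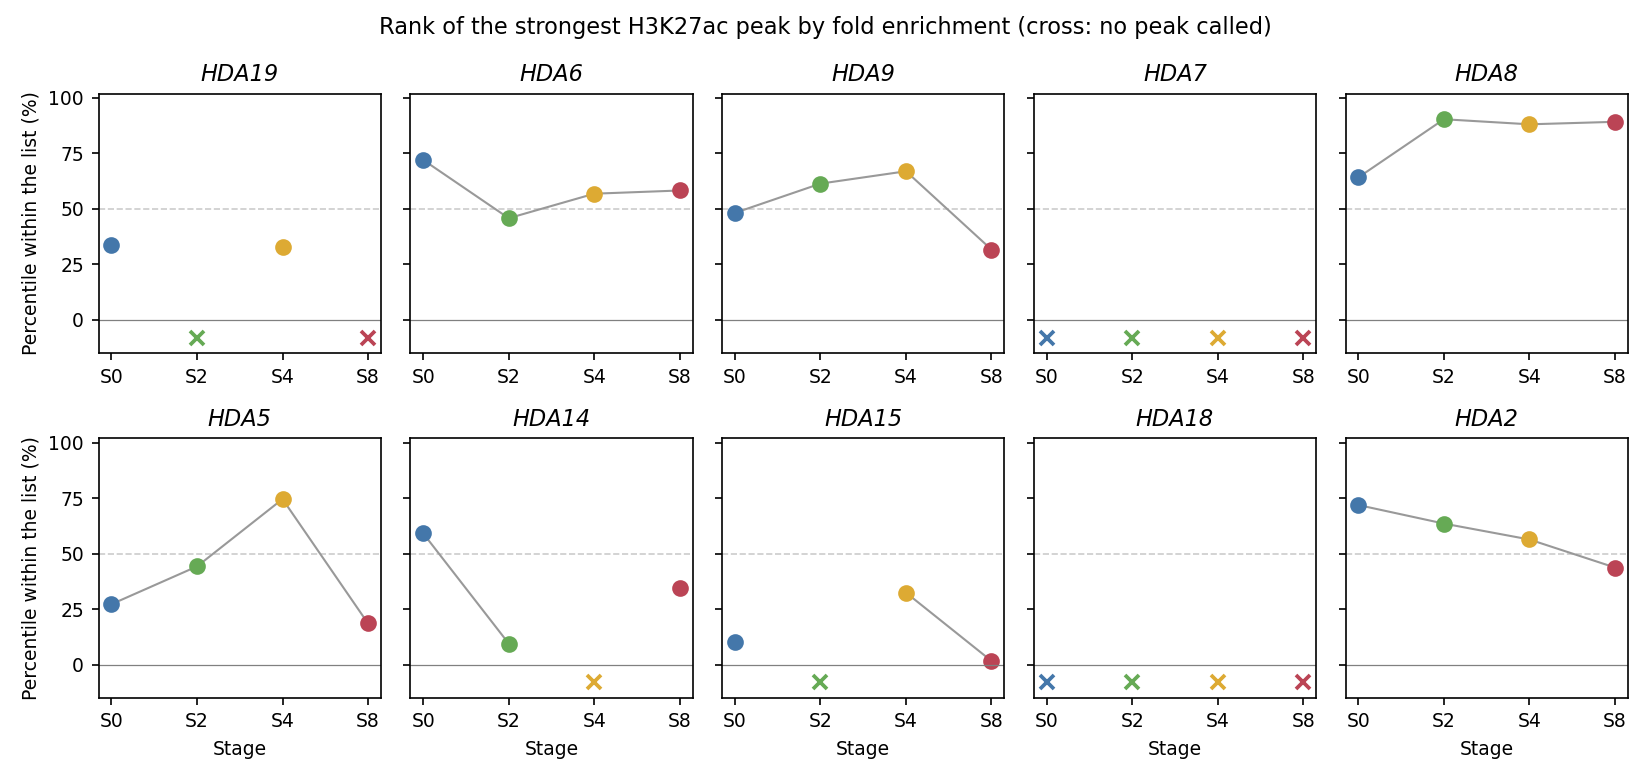
Percentile of the strongest H3K27ac peak of each deacetylase gene within the list of its stage (y axis, %, by fold enrichment) at S0, S2, S4 and S8 (x axis), with 1 panel per gene. Points are single values from pooled replicates without error bars, a cross below 0 marks a stage without a called peak, and the dashed line is the 50th percentile. *HDA8* lay between 88.1 and 90.4 at S2, S4 and S8, *HDA5* was highest at S4 with 74.5, and *HDA7* and *HDA18* have crosses only.

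*HDA19*, the class I deacetylase that works with TOPLESS and SIN3-like proteins to hold floral and stress genes silent, carried a peak at S0 and S4 only. The gene is on chromosome 4, minus strand, from 17896278 to 17899509. Its S0 peak was 620 bp wide, from 17898854 to 17899473, with a fold enrichment of 2.86 at the 33.9 percentile. Its S4 peak was 880 bp wide, from 17898573 to 17899452, with a fold enrichment of 2.64 at the 33.0 percentile. Both ranked below the middle of their lists by fold enrichment, though by fold enrichment times width the S4 peak was at the 52.2 percentile. The summits lay 46 bp apart in coding exon 2, at 495 and 541 bp from the TSS. The −log10 q of these peaks was 21.5 and 17.4, above the limit near 10. The pattern of a peak at S0 and S4 without one at S2 and S8 was shared by 491 genes, or 1.79% of all protein-coding genes.

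*HDA6*, the class I enzyme known for silencing of ribosomal RNA genes and transposons and for repressing *FLC* together with FLD and FVE, carried 1 peak at each stage. It is on chromosome 5, minus strand, from 25315506 to 25318347. Fold enrichment was 3.90 at S0 and, at the later stages in order, 3.002, 3.006 and 3.071, which placed the peak at the 72.1, 45.8, 56.9 and 58.3 percentiles. S0 was the highest rank, and the other stages lay within 12.5 points of each other. The peak was 837, 807, 821 and 734 bp wide in the same order, and 724 bp were shared by all 4 peaks. All 4 summits were in coding exon 1, 297 to 394 bp from the TSS. No 32-base word in the 100 bp on either side of these summits occurs again in the genome.

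*HDA9*, the class I enzyme that acts with POWERDRESS (PWR) on histone H3 and represses the flowering gene *AGL19*, also had 1 peak at each stage. It is on chromosome 3, minus strand, from 16226519 to 16230009. The peak ranked at the 48.2, 61.4, 67.0 and 31.7 percentiles in stage order. S8 was thus the lowest rank, 35.3 points below S4, and 85.3% of the 8561 genes with a peak at both stages moved by less. Summits were in intron 1 at S0 and S8, 382 and 374 bp from the TSS, and in coding exon 1 at S2 and S4, 265 and 274 bp from it. The gene has short relatives on the same chromosome, *HDA10* and *HDA17*, and 23.5% of its 32-base words occur again in the genome, against 66.2% in *HDA10* and 67.7% in *HDA17*. Around the *HDA9* summits this share was 0% at every stage. Neither *HDA10* nor *HDA17* had a peak at any stage, and since a read matching as many as 10 places was kept at 1 of them, reads from sequence that these genes share cannot be told apart.

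*HDA7*, a class I gene whose loss disturbs the female gametophyte, had no peak at any stage. It is the shortest of the 10 genes, 1592 bp on chromosome 5, minus strand, from 13770121 to 13771712, and its gene model has no UTR, so the gene start used here is the start codon. The nearest summit outside the window was 2505 bp from the gene at S0 and between 2607 and 2633 bp at the later stages. Only 0.448% of its 32-base words occur again in the genome.

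**Figure D2:**
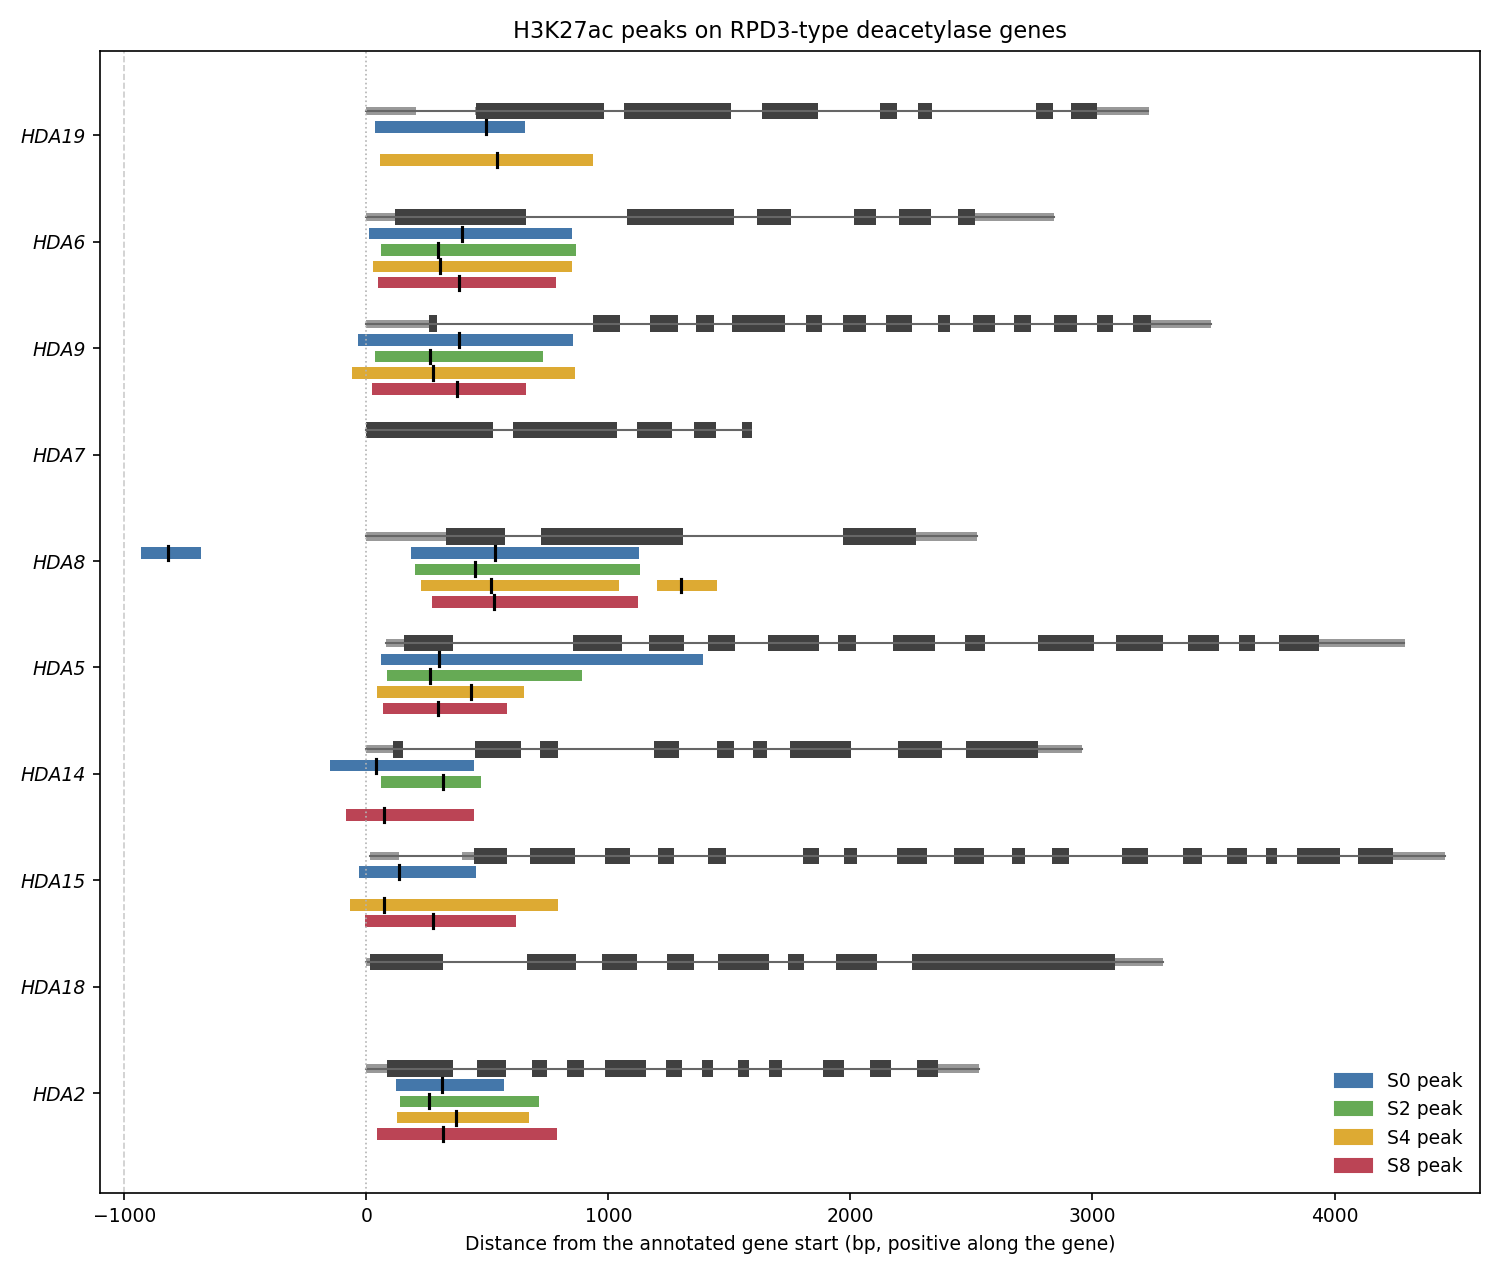
H3K27ac peaks (coloured bars, 1 row per stage) on the 10 deacetylase genes against distance from the gene start (x axis, bp, positive along the gene). Black ticks are summits, dark boxes are coding exons, grey boxes are UTRs of the isoform with the longest coding sequence, and the dashed line marks 1000 bp upstream. Apart from the second *HDA8* peaks at S0 (-819 bp) and S4 (1299 bp), all summits lay 39 to 541 bp downstream of the gene start.

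*HDA8*, a class II gene, carried the highest ranked peaks of the family from S2 on. It is on the plus strand of chromosome 1 from 2672198 to 2674721. Its strongest peak had a fold enrichment of 3.61 at S0, and 4.32, 3.95 and 4.16 at the later stages. These values placed it at the 64.2, 90.4, 88.1 and 89.2 percentiles. The rank was 26.2 points higher at S2 than at S0, and 69.4% of the 8883 genes with a peak at both stages moved by less in either direction. Over the 4 stages its mean percentile was 83.0, above that of 81.9% of the 7334 genes with a peak at every stage. Its widths in stage order were 943, 932, 821 and 849 bp, and all 4 shared 772 bp. Its summits lay in coding exon 1, 449 to 531 bp from the TSS.

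Further peaks were called near *HDA8* at S0 and S4. The S0 peak of 251 bp had its summit at -819 bp from the *HDA8* start, close to the 1 kb limit of the rule, at the 18.6 percentile. That summit is also 578 bp downstream of the TSS of the divergent neighbour *CRT3* (AT1G08450), a calreticulin gene, which was the nearest TSS. The S4 peak of 248 bp had its summit in coding exon 2, 1299 bp from the TSS, at the 3.20 percentile. It was the weakest of the 8 peaks on the family at S4. Counting only peaks whose nearest TSS was that of the gene left 8 genes with a peak at S0 and 5 at all stages.

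*HDA5* is a class II enzyme that joins HDA6, FLD and FVE in repressing *FLC*, and *HDA18* is its tandem neighbour, known for its part in the cell pattern of the root epidermis. Both lie on chromosome 5, minus strand, *HDA5* from 24566783 to 24571072 and *HDA18* from 24571095 to 24574387, with 22 bases between them. *HDA5* had a peak at every stage and *HDA18* at none. The *HDA5* peaks ended 83, 109, 66 and 90 bp short of *HDA18* in stage order, so none reached the 3′ end of *HDA18*. Repeated 32-base words made up 2.07% of *HDA5* and 3.62% of *HDA18*. In the 100 bp on either side of the *HDA5* summits this share was 4.12% at S0, S2 and S8 and 0% at S4.

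The rank of *HDA5* varied most over the stages among the genes with a peak at all 4. In stage order fold enrichment was 2.74, 2.98, 3.41 and 2.47, at the 27.2, 44.2, 74.5 and 18.5 percentiles. S4 stood above the other stages, and the range of 56.0 points exceeded that of 85.7% of the 7334 genes with a peak at every stage, whose median range was 33.4. From S4 to S8 the percentile changed by -56.0 points, and 97.3% of genes with a peak at both stages moved by less. Ranked by −log10 p in place of fold enrichment the same change was -59.1 points. Ranked by fold enrichment times width, however, S0 was the highest stage, with percentiles of 74.4, 56.0, 42.9 and 9.94 in stage order. The width itself went through 1329, 806, 606 and 514 bp, and the S4 peak was narrower than the S0 peak with a higher fold enrichment. The summit was in coding exon 1 at S0, S2 and S8, 301, 263 and 298 bp from the TSS, and in intron 1 at S4, 433 bp from it.

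*HDA14*, a class II enzyme found in chloroplasts and mitochondria, had a peak at S0, S2 and S8. It is on chromosome 4, minus strand, from 16102595 to 16105550, and the 3′ end of its upstream neighbour AT4G33480 is 19 bp away. Its peak ranked at the 59.1, 9.44 and 34.3 percentiles at these stages. The S2 peak was thus among the weakest of its list, with a −log10 q of 11.2. At S0 and S8 the summit lay in the 5′ UTR, 39 and 72 bp from the TSS, and the peak began at -149 and -82 bp. At S2 the summit lay in intron 1, 316 bp from the TSS, and the peak began 61 bp inside the gene.

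*HDA15*, a class II enzyme that works with PIF3 to repress chlorophyll and photosynthesis genes in the dark, had a peak at S0, S4 and S8. It is on the plus strand of chromosome 3 from 6361159 to 6365705. Its percentiles of 10.2, 32.4 and 1.60 were all below the middle of the list, while by fold enrichment times width they were 11.9, 50.3 and 12.9. The S8 peak had a −log10 q of 10.1 and stood just inside the limit of its list, at the 0.325 percentile by −log10 p. The widths of the peaks were 484, 861 and 623 bp. Their summits lay 133 and 75 bp from the TSS in the 5′ UTR at S0 and S4, and 276 bp from it in intron 1 at S8.

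*HDA2*, whose substrates are little known, had a peak at every stage. It is on chromosome 5, minus strand, from 9099152 to 9101682. In stage order its percentiles were 71.8, 63.5, 56.3 and 43.7. Each later stage thus ranked lower than the one before, by 28.1 points from S0 to S8, while 72.9% of the 9308 genes with a peak at both of these stages moved by less. By −log10 p the percentiles were 75.6, 62.3, 57.2 and 49.7, in the same order. By fold enrichment times width they were 28.3, 35.5, 24.0 and 44.3, with S8 the highest and no steady fall. Its peaks were 447, 571, 544 and 745 bp wide, the widest at S8. Summits lay 258 to 372 bp from the TSS, in coding exon 1 at S0, S2 and S8 and in intron 1 at S4.

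Across the family the strongest peak of each gene had median percentiles of 53.6, 53.6, 56.9 and 34.3 in stage order, over 8, 6, 7 and 7 genes. Over all genes with a peak the medians were 54.2, 52.2, 51.9 and 52.6, so the family lay near the middle of the lists at S0, S2 and S4 and lower at S8. At S8, *HDA9*, *HDA2*, *HDA5*, *HDA14* and *HDA15* were below the 50th percentile, and *HDA6* and *HDA8* above it. From S4 to S8 the median change of the 6 deacetylase genes with both peaks was -21.7 points, against 0.146 over 8561 genes. *HDA9*, *HDA2*, *HDA5* and *HDA15* moved down by 12.6 to 56.0 points, and *HDA6* and *HDA8* moved up by 1.44 and 1.13 points. The direction turned for *HDA2* and *HDA6* when peaks were ranked by fold enrichment times width. The size of a change between these stages over all genes had a median of 14.1 points. With 1 pooled list per stage, such changes cannot be set against replicate error.

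Summits lay close to the gene start at all stages, with a median distance for the family of 346.5, 281, 372 and 315 bp in stage order. Over all genes with a peak it was 362, 355, 357 and 361 bp. The summit of the 4 stages stayed within 83 to 171 bp in *HDA6*, *HDA9*, *HDA2*, *HDA5* and *HDA8*. From S0 to S8 the summit moved by a median of 8 bp over 7 deacetylase genes, against 69 bp over all genes with a peak at both stages. The shift was 10 bp or less in *HDA6*, *HDA9*, *HDA2*, *HDA5* and *HDA8*, and 33 and 143 bp in *HDA14* and *HDA15*. From S0 to S2 the family median was 89.5 bp, against 77 bp over all genes. From S0 to S4 it was 61 against 73 bp, and from S2 to S4 67 against 58 bp. From S2 to S8 it was 82.5 against 55 bp, and from S4 to S8 89 against 53 bp. The close match of S0 and S8 summits thus did not extend to the other pairs of stages.

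**Figure D3:**
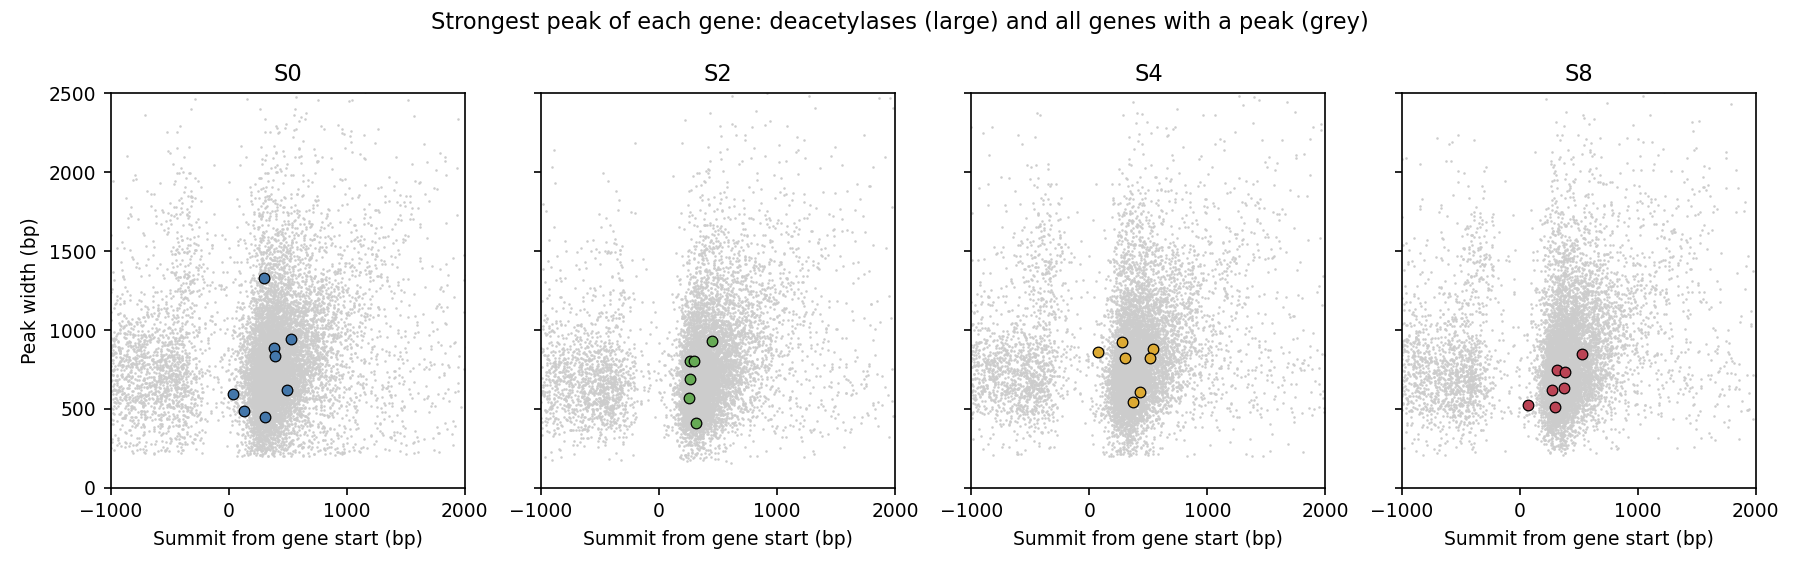
Width of the strongest peak (y axis, bp) against distance of its summit from the gene start (x axis, bp) at each stage, for deacetylase genes (large points) and all genes with a peak (grey points, those within the axes shown). Most deacetylase peaks lie inside the main cloud, with *HDA5* at S0 the widest at 1329 bp, and *HDA14* at S0 and S8 and *HDA15* at S0 and S4 lie at its left edge, nearest to the gene start.

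The median peak width of the family was 728.5, 749.5, 821 and 634 bp in stage order. Over all genes with a peak the medians were 772, 716, 778 and 768 bp, with quartiles at S8 of 620 and 985 bp. The *HDA9* and *HDA5* peaks at S8, 634 and 514 bp, were their narrowest, while that of *HDA2* was its widest. In the window from 250 bp before to 50 bp after the gene start, the TATA box letters TATAAA, searched on both strands, occurred in *HDA19*, *HDA9*, *HDA2* and *HDA8*, and in 52.1% of all protein-coding genes. The repeat GAGAGA occurred in *HDA5*, *HDA14* and *HDA15*, and in 29.2% of all genes. The letters GGGCC were found in *HDA19* alone, against 18.3% of all genes, and the telo-box AAACCCTA in none of the 10, against 6.22%. None of these motifs separated the genes with a peak at all stages from the rest of the family.

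Genes of the complexes that deacetylases work in were also described. Of 16 such partner genes 14, 10, 11 and 10 had a peak in stage order, and 9 had one at all 4 stages. *FLD*, the demethylase homologue that acts with HDA5 and HDA6, ranked at the 50.6, 69.6, 87.6 and 74.2 percentiles. *SAP18*, a SIN3-associated protein that binds HDA19, ranked at the 79.5, 86.1, 56.9 and 78.6 percentiles. *MSI1* had the lowest partner ranks at S2 and S8, through 29.2, 3.03, 43.2 and 4.27. Its S4 and S8 summits were nearer to the TSS of another gene. *HOS15*, a WD40 co-repressor that works with HDA9, ranked lower at each later stage, from 86.5 at S0 to 54.3, 35.4 and 19.8. So did *SNL4*, through 80.2, 54.6, 40.8 and 29.5. *LDL2*, a homologue of FLD, went the other way, through 10.2, 33.6, 48.7 and 64.1. By fold enrichment times width none of *HOS15*, *SNL4* and *LDL2* moved steadily. *HOS15* then went through 54.5, 21.8, 13.5 and 22.0, and *SNL4* through 88.7, 48.1, 66.9 and 49.8. For *LDL2* these percentiles were 20.5, 32.9, 75.8 and 71.3. *LDL1*, another FLD homologue, had the highest partner rank at S0 and went through 87.2, 69.0, 79.2 and 33.2. The highest partner rank at S8 was that of *SNL2*, at 86.7. Among the SIN3-like scaffolds, *SNL2* and *SNL4* had a peak at every stage, *SNL5* at S0 and S2, *SNL6* at S0, *SNL3* at S4 and *SNL1* at none. *FVE* had a peak at S0 and S4, as *HDA19* did, *MSI5* at S0 and S8, and *HDC1* at S0 only. The *PWR* peak that ranked highest at each stage had its summit between -614 and -494 bp, where another gene had the nearest TSS.

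Of 8 other deacetylase genes 2, 0, 1 and 3 had a peak in stage order, and none had one at all stages. Of the plant-specific HD-tuin type, *HDT2* had a peak at S8, *HDT3* at S0 and S8, and *HDT1* and *HDT4* had none. Of the sirtuins, whose catalysis depends on NAD, *SRT1* had a peak at S4 and *SRT2* at S0 and S8. *HDA10* and *HDA17*, the short RPD3-type relatives of *HDA9*, had none. The highest of these ranks was that of *SRT2* at S0, at the 71.6 percentile, with its summit at -315 bp and nearer to the TSS of another gene.

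**Figure D4:**
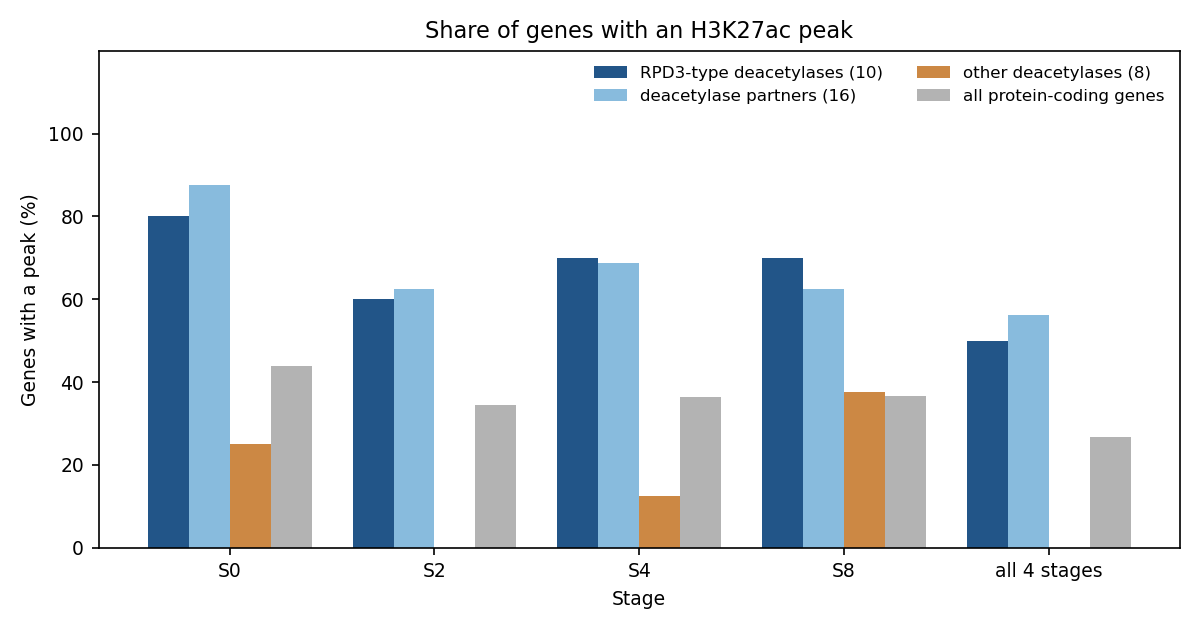
Share of genes with an H3K27ac peak (y axis, %) at each stage and at all 4 stages (x axis) for the 10 RPD3-type deacetylase genes, 16 partner genes, 8 other deacetylase genes and all 27444 protein-coding genes. Bars are single values without error. The RPD3-type and partner genes stood between 50% and 87.5%, all protein-coding genes between 26.7% and 43.8%, and the other deacetylase genes between 0% and 37.5%.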

How the data were processed

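H3K27ac was profiled by ChIP-seq in 8 libraries, 2 per stage, with 2 inputs. Reads were mapped by the authors to TAIR10 with Bowtie 1.1.2 (up to 2 seed mismatches, reads with more than 10 places discarded, 1 place kept), and duplicates were removed with Picard. Peaks were called with MACS2 2.1.0 against the joined inputs at p up to 0.01 and filtered at an IDR up to 0.1. The deposited lists, 1 per stage from pooled replicates, give each peak a score (10 times its −log10 p, rounded down), the fold enrichment ratio over input, and its p-value and q-value on a −log10 scale. Pooling leaves no replicate error.

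Gene models came from RefSeq TAIR10.1, whose nuclear chromosomes are those of TAIR10. All 42 listed genes were found by locus tag. Summits were assigned with Python 3.11.15 and pandas 2.3.3, checked against bedtools 2.31.1 and tested on simulated data. A gene with several peaks was ranked by the one with the highest fold enrichment. All listed genes are named, and outside the 10 member genes ranks are given for only some of them. The members and lists were chosen with earlier results of these data known. Alternatives were the assignment rule, stricter peak limits, other ranking values, joining of peaks and removal of peaks on repeated sequence.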

Additional observations from a re-analysis of the deposited data

How the results depend on the processing

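The counts of deacetylase genes with a peak were identical with gene bodies alone, 2 kb upstream, the nearest TSS, peak midpoints, any overlap of 1 bp or removal of peaks on repeated sequence. Stricter lists lowered them by construction. With the upper 50% of each list by −log10 p, 4, 4, 5 and 2 genes had a peak in stage order. At all 4 stages it was 2 (*HDA6* and *HDA8*). With a −log10 q of at least 20, 6, 3, 5 and 3 genes had a peak. At all stages it was 3 (*HDA6*, *HDA2* and *HDA8*). Shares of all protein-coding genes under these stricter limits are not given, so these counts cannot be read against them. The median percentile ranked by −log10 p was 47.4 at S0 and 27.8 at S8. Ranked by fold enrichment times width it was 49.1 at S0, 52.2 at S4 and 26.1 at S8, and the highest ranked stage changed for *HDA19*, *HDA2* and *HDA5*. After joining of peaks within 500 bp it was 51.3, 52.5, 55.7 and 32.9 at S0, S2, S4 and S8. No paired analysis was possible because the lists hold no value per replicate, and leaving out a replicate could not be done for the same reason.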
